A study of Mus musculus with 28 samples.

Results

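The genes of perforin (Prf1) and of granzymes B to F (Gzmb, Gzmc, Gzmd, Gzme and Gzmf) are described here in CD8+ T cells sorted from mouse tumours. These 6 genes were listed by name, and the granzyme C to F genes were chosen by their levels in these same libraries, which were high in Tim-3+PD-1+ cells. All 6 were found among the 21614 gene names of one bulk table, the 20603 of the other and the 27933 of the single-cell table. Their difference between Tim-3+PD-1+ cells and cells without these 2 receptors is therefore given as values with no test, and so are granzymes C to F in the subsets. Granzyme C to F counts were also found in some libraries of cells sorted without PD-1, given below. The part of other cells in those counts was not tested.

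Every animal was a wild-type C57BL/6 mouse with an implanted MC38-OVA tumour, a colon carcinoma line made to express ovalbumin. In the treatment experiment the mice received either isotype control antibodies or anti-PD-1 with anti-Tim-3 antibodies (called blockade here), and on day 12 after implantation Tim-3-PD-1- cells (double-negative, DN) and Tim-3+PD-1+ cells (double-positive, DP) were sorted, with 3 libraries for each of the 4 combinations. In the subset experiment PD-1- cells, with no antibody treatment stated, were sorted as naive-like (CD62LhiSlamf7-CX3CR1-, n = 6), memory-like (CD62L-Slamf7hiCX3CR1-, n = 5) and effector-like (CD62L-Slamf7hiCX3CR1+, n = 3). A bulk library held RNA of about 2000 cells, and 1 single-cell library of DN cells was made after isotype and 1 after blockade. Whether replicates are separate animals is not stated, so p-values measure the spread between these libraries. In the treatment experiment each DN library shares a number in its name with a DP library of the same treatment. In the subset experiment each memory-like library shares a number with a naive-like library, and effector-like replicate 3 shares its number with both groups. Whether such libraries come from the same animal is not stated, and the main fits do not pair them. The names of effector-like replicates 1 and 2 list several numbers, of which one recurs in the name of replicate 3, so these may be pools that share an animal. The date in the library names is one for naive-like cells and a different one for memory-like and effector-like cells, and its part cannot be told apart from the subset.

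Killer T cells store perforin and granzymes in cytotoxic granules, bound to the proteoglycan serglycin, and release them towards a target cell. Perforin forms pores in the target's membrane, and granzymes, which are serine proteases, enter and cleave proteins there. Granzyme B cuts after aspartate and activates caspases. Granzymes C to F are rodent relatives of granzyme B whose genes lie beside Gzmb in one cluster with mast cell protease genes, and they are less studied than granzymes A and B.

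The start regions of 4 of these genes are shown because granzymes B to F lie in 1 gene cluster and, in these libraries, differed in where they were expressed. Each window runs from 250 bases before to 50 after the annotated start (RefSeq, GRCm38.p6), read in the gene's direction, at chr14:56262285-56262584 for Gzmb, chr14:56234608-56234907 for Gzmc, chr14:56132544-56132843 for Gzmd and chr14:56211358-56211657 for Gzmf, all on the minus strand. Capitals mark matches on either strand to 5 motifs, whose letters follow with their counts, and no matches overlapped in these windows.
Gzmb: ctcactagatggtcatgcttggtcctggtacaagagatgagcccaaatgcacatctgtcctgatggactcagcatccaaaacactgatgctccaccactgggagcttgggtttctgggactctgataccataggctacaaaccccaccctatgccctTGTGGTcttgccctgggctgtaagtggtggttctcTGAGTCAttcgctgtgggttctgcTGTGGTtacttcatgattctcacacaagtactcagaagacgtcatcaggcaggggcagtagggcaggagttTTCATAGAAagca
Gzmc: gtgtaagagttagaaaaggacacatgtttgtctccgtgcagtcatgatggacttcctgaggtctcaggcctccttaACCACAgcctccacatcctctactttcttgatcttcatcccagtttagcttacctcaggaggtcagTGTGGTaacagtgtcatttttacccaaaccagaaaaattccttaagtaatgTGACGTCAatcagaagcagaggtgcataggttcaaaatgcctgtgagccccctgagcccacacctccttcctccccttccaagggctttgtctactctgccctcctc
Gzmd: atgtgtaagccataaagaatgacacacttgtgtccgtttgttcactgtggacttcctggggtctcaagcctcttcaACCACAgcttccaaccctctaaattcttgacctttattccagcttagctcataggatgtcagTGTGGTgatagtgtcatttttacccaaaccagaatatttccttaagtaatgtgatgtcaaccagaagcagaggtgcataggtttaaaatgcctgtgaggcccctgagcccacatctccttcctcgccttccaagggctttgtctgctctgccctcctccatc
Gzmf: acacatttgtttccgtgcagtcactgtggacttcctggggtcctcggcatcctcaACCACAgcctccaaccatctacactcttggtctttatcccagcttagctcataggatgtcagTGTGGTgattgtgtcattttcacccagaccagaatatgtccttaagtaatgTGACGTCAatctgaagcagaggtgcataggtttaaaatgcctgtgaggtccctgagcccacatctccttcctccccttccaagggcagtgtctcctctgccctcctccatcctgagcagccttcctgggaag

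The start regions of granzymes C to F resembled each other and not that of Gzmb. After global alignment the windows of Gzmd and Gzme were 93.4% identical, those of Gzmc with Gzmd and Gzme 83.4% and 83.8%, and that of Gzmf 74.9 to 78.0% identical to the other 3, whereas the Gzmb window reached 44.4 to 50.2% with any other member, close to the 43.9 to 47.3% of Prf1 with granzymes C to F. The CRE motif TGACGTCA, a site of the CREB and ATF factors, stood in the windows of Gzmc and Gzmf, 57 and 82 bases before the start, and in 1.79% of the 32851 RefSeq windows of this length. At 61 bases before its start Gzmd had TGATGTCA, and Gzme had TGACATCA at 62 bases, each with 1 letter of 8 different. Gzmb had AGACGTCA, also with 1 letter different, 2 bases after its start. A match with at most 1 letter different was found in 12.5% of windows. Gzmb alone among the 6 had the AP-1 motif TGANTCA, 58 bases before its start, which 7.81% of windows hold. It alone also had the STAT motif TTCNNNGAA, which 8.3% hold. The RUNX motif TGTGGT stood in all 6 windows and in 16.8% of all windows. The TATA box motif TATAAA stood in none of the 6 and in 13.6% of all windows. Prf1 lies on chromosome 10, apart from the cluster. These matches describe letters only.

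Reads of granzymes D and E are the least certain to be assigned to 1 gene. Of the 25-base stretches of the annotated Gzme transcript 49.8% recurred exactly in another granzyme B to G or N transcript, of Gzmd 44.9%, of Gzmf 29.4%, of Gzmc 19%, of Gzmb 2.41% and of Prf1 none of 2450. At 50 bases the shares were 20.6% for Gzme, 21.7% for Gzmd, 7.36% for Gzmf, 4.14% for Gzmc and 0 for Gzmb and Prf1. How reads divide between Gzmd and Gzme is therefore uncertain in each value below.

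Total counts ran from 5027112 to 7978200 per library in the subset and from 8005818 to 13579262 in the treatment experiment. T cell marker genes were present throughout, with summed levels of 3203 to 5333 CPM (the count per 1e+06 counts of a library, after TMM scaling of its total). Markers of other cells moved with the groups. The 8 plasmacytoid dendritic cell markers summed to 2113 to 3088 CPM in DN isotype, 1309 to 1991 in DN blockade and 403 to 585 in DP libraries, and to 539 to 2222 in memory-like against 186 to 273 in effector-like libraries. The 11 myeloid markers measured summed to 50.2 to 80.6 CPM in DN isotype, 64.7 to 211 in DN blockade and 243 to 561 in DP libraries. Sums of the 8 natural killer cell markers were 342 to 479 CPM in DN isotype, 252 to 424 in DN blockade and 107 to 206 in DP libraries. Havcr2, the Tim-3 gene, ran from 2.48 to 6.30 CPM in DN isotype, from 18 to 36.5 in DN blockade and from 245 to 391 in DP libraries, and Pdcd1, the PD-1 gene, from 25.4 to 40.4, from 58.6 to 136 and from 531 to 628 CPM. Both were highest in DP libraries, and within the DN gate both lay higher after blockade with no overlap. In DN isotype libraries the myeloid marker Fcgr1 was at 0, in DN blockade libraries S100a9. Tumour and stroma markers summed to 106 to 633 CPM in DN isotype, 355 to 1462 in DN blockade and 294 to 591 in DP libraries. The part of these cells in the differences below was not tested.

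Within the treatment experiment all 6 genes were highest in DP cells, and the differences were widest for granzymes D, E and F. In isotype-treated mice Gzmb was at 259, 303 and 323 CPM in DN and at 2108, 2148 and 1914 CPM in DP libraries, 6.98-fold apart by the means. The ranges were far from meeting, and Gzmb was well expressed in both populations. In bulk RNA, fewer cells that express a gene and less RNA per cell cannot be told apart. Prf1 was at 36.2, 54.3 and 32.9 CPM in DN and at 1053, 825 and 786 CPM in DP libraries, 21.6-fold apart. Gzmc was at 7.46, 22.8 and 0.596 CPM in DN and at 474, 446 and 336 CPM in DP libraries, 40.7-fold apart. The DN libraries differed widely among themselves for Gzmc, and replicate 2 held most of it. Without that replicate the log2 difference of Gzmc was 6.75 in place of 5.36.

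The remaining granzymes were close to undetected in DN isotype libraries. Gzmf was 0 in all 3 of them, which allows up to 0.107 CPM over the group, and 667, 503 and 353 CPM in DP isotype libraries, at least 4738-fold higher. Gzmd had 1, 0 and 3 counts in the DN isotype libraries, and 194, 171 and 114 CPM in the DP isotype libraries. Gzme had 0, 8 and 0 counts in DN, and 121, 111 and 63.9 CPM in DP isotype libraries. After blockade the DP libraries were again above every DN library for each of the 6 genes, with mean ratios of 5.10 for Gzmb, 10.6 for Prf1, 17.5 for Gzmc, 41.1 for Gzmd, 84.7 for Gzme and 111 for Gzmf. Libraries of DP cells lay wholly above those of DN cells for 22.3% of all 12710 genes tested under isotype and for 22.8% under blockade, the contrast by which these genes were chosen. Means in the treatment experiment ran, for all 6 genes, from DP blockade through DP isotype and DN blockade to DN isotype. Neighbours in that order overlapped between the DP groups for all members but Gzmb, and between the DN groups for Gzme only.

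**Figure D1:**
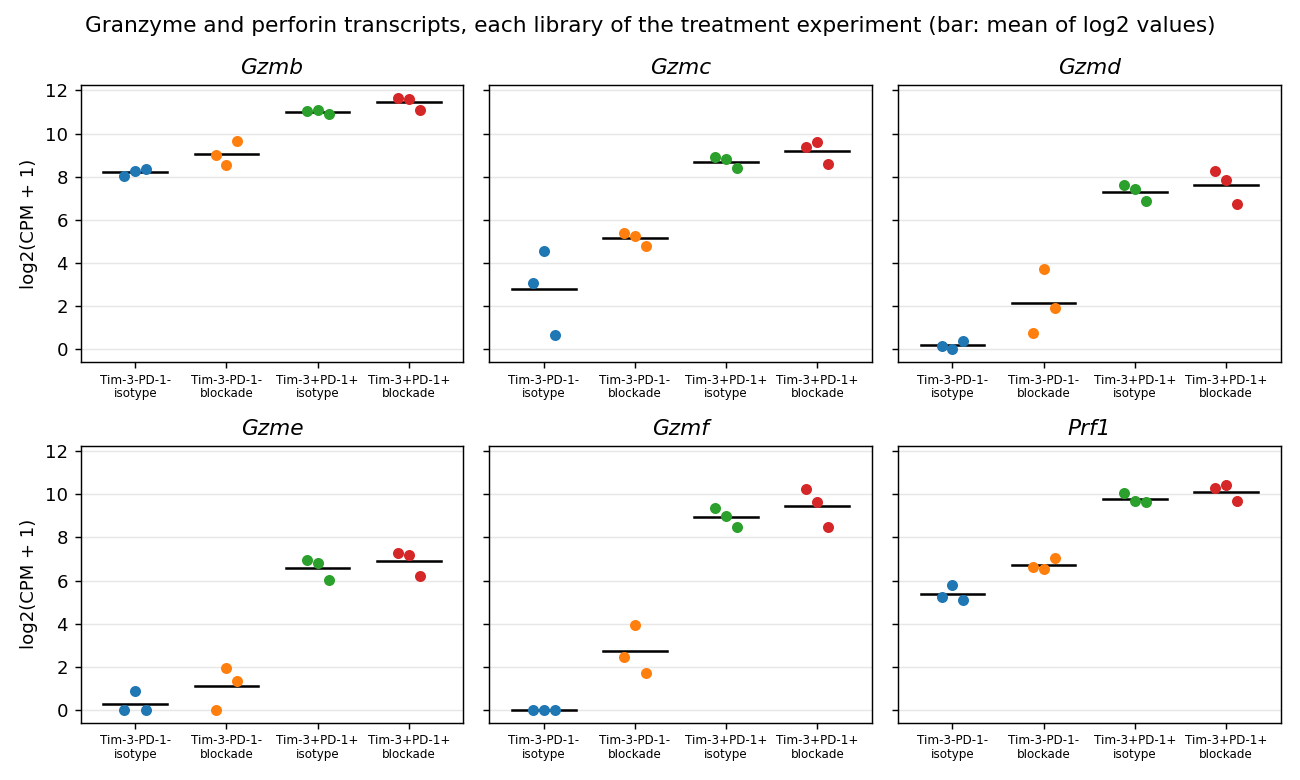
Each point is 1 library of the treatment experiment and each bar the mean of its group (3 libraries), on a log2(CPM + 1) axis, for the 6 genes. The DP points lie above the DN points in every panel, the Gzmf points of DN isotype lie at 0, and DP blockade replicate 3, the right point of its group, is the lowest of the group in each panel.

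Granzymes C to F made up a large part of the granzyme transcripts of DP cells. The authors' length-scaled values, which allow levels of different genes to be compared, put Gzmb first in DP isotype libraries at 1452 ± 68.0 (SD, n = 3), followed by Gzmf at 558 ± 169, Gzmc at 447 ± 73.3, Prf1 at 432 ± 68.3, Gzmd at 170 ± 42.0 and Gzme at 107 ± 32.1. Gzmf, Gzmc and Prf1 did not differ beyond their spread, whereas Gzmb lay above them in every library. In DN isotype libraries the order was Gzmb at 207 ± 23.3, Prf1 at 19.8 ± 5.18 and Gzmc at 10.8 ± 11.8. Together, granzymes C to F amounted to 87.8 ± 18.3% of the Gzmb level in DP isotype and to 5.57 ± 5.80% in DN isotype libraries. Prf1 was 29.7 ± 4.15% of the Gzmb level in DP and 9.68 ± 2.67% in DN isotype libraries.

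Of the summed signal of 10 granzyme genes in DP isotype libraries, Gzmb held 49.7 ± 4.35%, Gzmf 18.7 ± 3.52%, Gzmc 15.2 ± 0.62%, Gzmd 5.73 ± 0.74% and Gzme 3.57 ± 0.69%. Gzma, the main tryptase granzyme, held 3.43 ± 0.48% there against 23.7 ± 4.38% in DN isotype libraries, and Gzmk held 2.83 ± 0.71% against 12.9 ± 1.05%. Gzmb held a similar share in DN isotype libraries, 56.1 ± 3.56%. In DP cells after blockade Gzmb held 49.6 ± 6.38% and Gzmf 19.7 ± 5.35%, within the spread after isotype, whereas Gzmg held 0.308 ± 0.129% against 0.764 ± 0.135%, with no overlap.

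**Figure D2:**
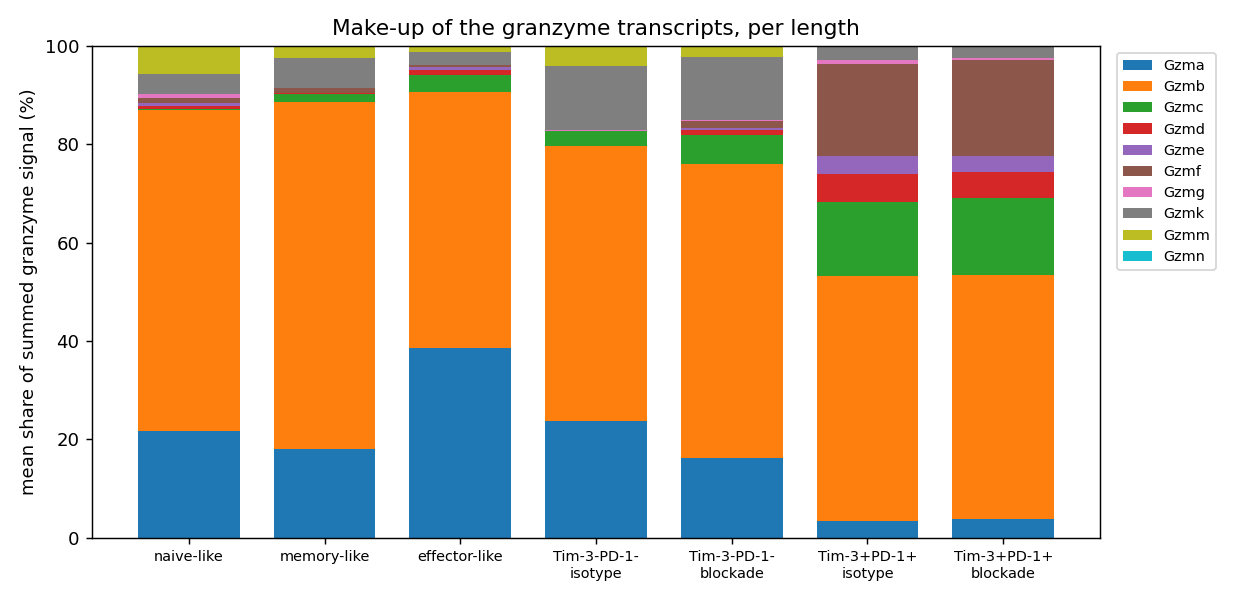
Stacked bars give the mean share (%) of each granzyme in the summed length-scaled signal of 10 granzyme genes, for the 7 bulk groups (n = 6, 5 and 3 in the subsets, 3 in the others). Granzymes C to F fill a broad band in both DP groups and a thin one elsewhere, and Gzmb is the largest part of every bar. The first 3 bars and the last 4 come from tables normalized separately.

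In DN cells, blockade was accompanied by a rise of Prf1, and the granzymes lay higher without passing the test. Prf1 was at 98.5, 90.4 and 132 CPM in DN blockade libraries, against 36.2, 54.3 and 32.9 in DN isotype libraries, with no overlap (log2 1.38 ± 0.23 SE, edgeR quasi-likelihood adjusted p = 0.0231). It was the 1 member of 6 called in this comparison, in which 1.12% of 12710 genes were called. Gzmb was at 520.0, 371 and 793 CPM after blockade, all above the 259 to 323 CPM of the isotype libraries (log2 0.93 ± 0.23, edgeR adjusted p = 0.0700). Replicate 3 was the highest of the blockade libraries for both genes and for Havcr2. Leaving it out gave an edgeR adjusted p = 0.0715 for Prf1, leaving out DN isotype replicate 1 gave 0.0791, and leaving out DN blockade replicate 2 brought Gzmb to 0.0247. Fitted on the 6 DN libraries alone, Prf1 had an edgeR adjusted p = 0.141.

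Gzmf appeared in every DN blockade library. It had 45, 114 and 23.4 expected counts there, or 4.55, 14.4 and 2.32 CPM, against 0 in the 3 isotype libraries, so it was at least 66.2-fold higher by the group means. The edgeR adjusted p was 0.0582. It was 0.0408 when the replicate number of the titles was a block over all 12 libraries, DP included. That fit called 59 genes in place of 142, with Prf1 at an edgeR adjusted p of 0.0399. Gzmc was at 41.6, 36.9 and 26.7 CPM, above the 0.596 to 22.8 CPM of the isotype libraries (log2 1.78 ± 0.64, edgeR adjusted p = 0.207). Gzmd was at 0.708, 12.1 and 2.79 CPM against at most 0.298 (log2 5.00 ± 1.36, edgeR adjusted p = 0.0951), a difference that rests on 4 isotype counts. Gzmd and Gzme entered the test only through the DP libraries: neither passed the count filter when the DN libraries were taken alone, so their DN estimates are little supported. Gzme overlapped between the groups, at 0, 2.88 and 1.53 CPM against 0, 0.869 and 0 (edgeR adjusted p = 0.412). Blockade libraries lay wholly above isotype libraries for 5 of the 6 members and for 6.55% of all genes tested. DN blockade replicate 2, the lowest for Gzmb and Prf1, was the highest for Gzmd, Gzme and Gzmf. Among the DN blockade libraries, replicate 2 also had the highest sum of myeloid markers, 211 CPM. Of 11 myeloid markers tested, Lyz2 and Fcgr1 were called higher after blockade in DN cells.

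In DP cells all 6 estimates were above 0 and none passed. Gzmb was at 3253, 3140.5 and 2199 CPM after blockade, just above the highest isotype library at 2148 CPM (log2 0.48 ± 0.22, edgeR adjusted p = 0.704). Groups did not overlap for this 1 member, as for 8.23% of all genes with blockade higher. Gzmf ran from 362 to 1198 CPM after blockade and from 353 to 667 after isotype (log2 0.63 ± 0.50, edgeR adjusted p = 0.871). Log2 differences of the others were 0.55 ± 0.56 for Gzmc, 0.42 ± 0.51 for Gzmd, 0.33 ± 0.45 for Gzme and 0.36 ± 0.22 for Prf1, with edgeR adjusted p from 0.810 to 0.943. The edgeR test called 8 genes in this comparison (0.0629% of 12710) and 909 (7.15%) had an unadjusted p under 0.05, of the members none; DESeq2 called 63 genes. DP blockade replicate 3 was the lowest of its group for all 6 genes, at 104 CPM for Gzmd against 226 and 310.0 in the others, and below every isotype library for Gzmd.

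The difference between the blockade effects of DN and DP cells was not established for any member. It was -1.02 ± 0.32 log2 for Prf1 (DP minus DN, edgeR adjusted p = 0.362), -0.45 ± 0.31 for Gzmb (0.728), -1.23 ± 0.84 for Gzmc (0.727), -4.58 ± 1.54 for Gzmd (0.418) and -1.90 ± 1.33 for Gzme (0.729), where each value in brackets is an edgeR adjusted p. All were below 0, as was that of Gzmf (edgeR adjusted p = 0.326), whose fitted size has no lower bound because of the isotype zeros. The values of Gzmd and Gzme have the same limit as in the DN comparison. edgeR called 0% of the 12710 genes in this contrast, with 1070 (8.42%) at an unadjusted p under 0.05, Prf1 and Gzmf among them, and Gzmd with that limit. DESeq2 called 113 genes, including Prf1 (adjusted p = 0.0475) and Gzmf (adjusted p = 7.76e-04), and limma-voom called 0.

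**Figure D3:**
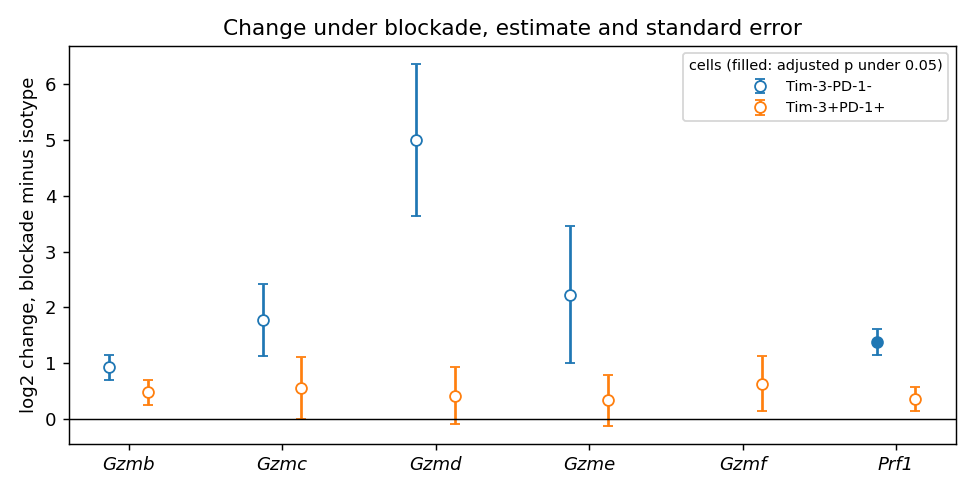
Points give the log2 change from isotype to blockade of each gene with its standard error as bars, for DN and DP cells (3 libraries a group), filled where the adjusted p was under 0.05. Prf1 in DN cells is the 1 filled point, at 1.38, and the DP points lie between 0.33 and 0.63; Gzmf in DN cells is not drawn because its isotype libraries are at 0.

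Among PD-1- subsets Gzmb was lowest in naive-like cells, and its mean was highest in effector-like cells. The 6 naive-like libraries ran from 96.3 to 425 CPM with a median of 140 CPM. Memory-like libraries were at 1023, 737, 1171, 1576 and 2645 CPM, and effector-like libraries at 2073, 3230.0 and 4132 CPM. The naive-like group stood below both others with no overlap, as did 6.35% of genes against effector-like and 2.85% against memory-like cells, and the highest memory-like library, replicate 5, exceeded the lowest effector-like one. Gzmb was higher in effector-like than naive-like cells (log2 4.03 ± 0.45, edgeR adjusted p = 3.38e-05) and in memory-like than naive-like cells (log2 2.89 ± 0.41, edgeR adjusted p = 0.00106), while the difference between effector-like and memory-like cells did not pass (log2 1.14 ± 0.46, edgeR adjusted p = 0.323). With the number in the library names as a block, memory-like against naive-like cells gave an edgeR adjusted p = 0.405 for Gzmb. That fit called 0 genes. The effector-like mean, 3145 ± 1032 CPM, was above the 2864 ± 579 CPM of DP blockade cells in the other experiment, which was scaled apart. Between memory-like and naive-like cells 4 of 8 plasmacytoid dendritic cell markers and 2 of 4 CD4 T cell markers were also called higher and 3 of 11 myeloid markers lower. Memory-like libraries had plasmacytoid sums of 539 to 2222 CPM, CD4 sums of 34.3 to 75.8 and myeloid sums of 19.1 to 928. For naive-like libraries these sums were 137 to 643, 2.77 to 37.5 and 31.6 to 1099 CPM. The part of these cells in the Gzmb difference was not tested.

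Prf1 followed the same order of means in smaller steps. Naive-like libraries ran from 37.2 to 92.6 CPM with a median of 56.6 CPM. Memory-like libraries were at 78.7, 113, 89.8, 79.1 and 175 CPM, and effector-like libraries at 339, 170 and 281 CPM. Memory-like libraries overlapped with both others. Prf1 was higher in effector-like than naive-like cells (log2 2.19 ± 0.30, edgeR adjusted p = 2.06e-04) and than memory-like cells (log2 1.3 ± 0.31, edgeR adjusted p = 0.0463), but not higher by the test in memory-like than naive-like cells (log2 0.89 ± 0.27, edgeR adjusted p = 0.0637, or 0.0288 without naive-like replicate 3). The call between effector-like and memory-like cells was lost in 9 of 14 alternatives. Without effector-like replicate 1 the edgeR adjusted p was 0.230, without replicate 3 it was 0.139, and without memory-like replicates 1, 2, 3 and 4 in turn it was 0.119, 0.0756, 0.105 and 0.120. Of the 2 members tested, 2 were called between effector-like and naive-like cells (6.42% of 12388 genes), 1 between memory-like and naive-like cells (5.51%) and 1 between effector-like and memory-like cells (1.91%).

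The 2 genes ranked the effector-like libraries differently. Replicate 1 had the lowest Gzmb of its group and the highest Prf1, and the level of Prf1 per length was 3.62 to 11.3% of that of Gzmb across the group. In naive-like libraries this ratio ran from 10.2 to 61.8%, and in memory-like libraries from 3.46 to 10.5%. These ratios use the authors' length-scaled values and are given without a test.

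Granzymes C to F were present in single PD-1- libraries. For Gzmc the effector-like libraries were at 215, 101 and 44.9 CPM and the memory-like at 5.05, 0, 21.9, 6.80 and 142 CPM, while no naive-like library exceeded 1.06 CPM. Effector-like libraries thus lay wholly above naive-like libraries for Gzmc, as for 6.35% of all 12388 genes tested, and overlapped with memory-like ones. Effector-like and naive-like libraries overlapped for Gzmd, Gzme and Gzmf. Gzmd, Gzme and Gzmf were at 109, 55.9 and 56.3 CPM in effector-like replicate 1 and at most 0.945 CPM in replicates 2 and 3. They were at 15.6, 4.96 and 106 CPM in memory-like replicate 5 and at most 0.716 CPM in the other 4 memory-like libraries. In naive-like replicate 2 they were at 3.17, 3.02 and 5.06 CPM. These levels of Gzme and Gzmf were below those of every DP library, whereas Gzmd in effector-like replicate 1 was near the lowest DP library at 104 CPM; the 2 experiments were scaled apart. The 2 libraries that held these transcripts differed in make-up: the Gzmd level was above that of Gzmf per length in effector-like replicate 1, at 121 against 64.4 authors' units, and below it in memory-like replicate 5, at 17.5 against 122.

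Effector-like replicate 1 also had the highest Havcr2 of the subset libraries, at 30.2 CPM against at most 13.7 in the others. Its Pdcd1 was the highest as well, at 75.3 CPM against at most 56.2 in the others. Its myeloid marker sum was 525 CPM against at most 44.0 in the other effector-like libraries, and its sum of tumour and stroma markers was 786 CPM, against 514 CPM in the next. In memory-like replicate 5 Havcr2 was at 2.14 CPM and Pdcd1 at 31.6 CPM, the lowest Pdcd1 of its group. The sum of plasmacytoid dendritic cell markers in this replicate was the highest of its group, at 2222 CPM. The part of other cells in these granzyme counts was not tested.

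**Figure D4:**
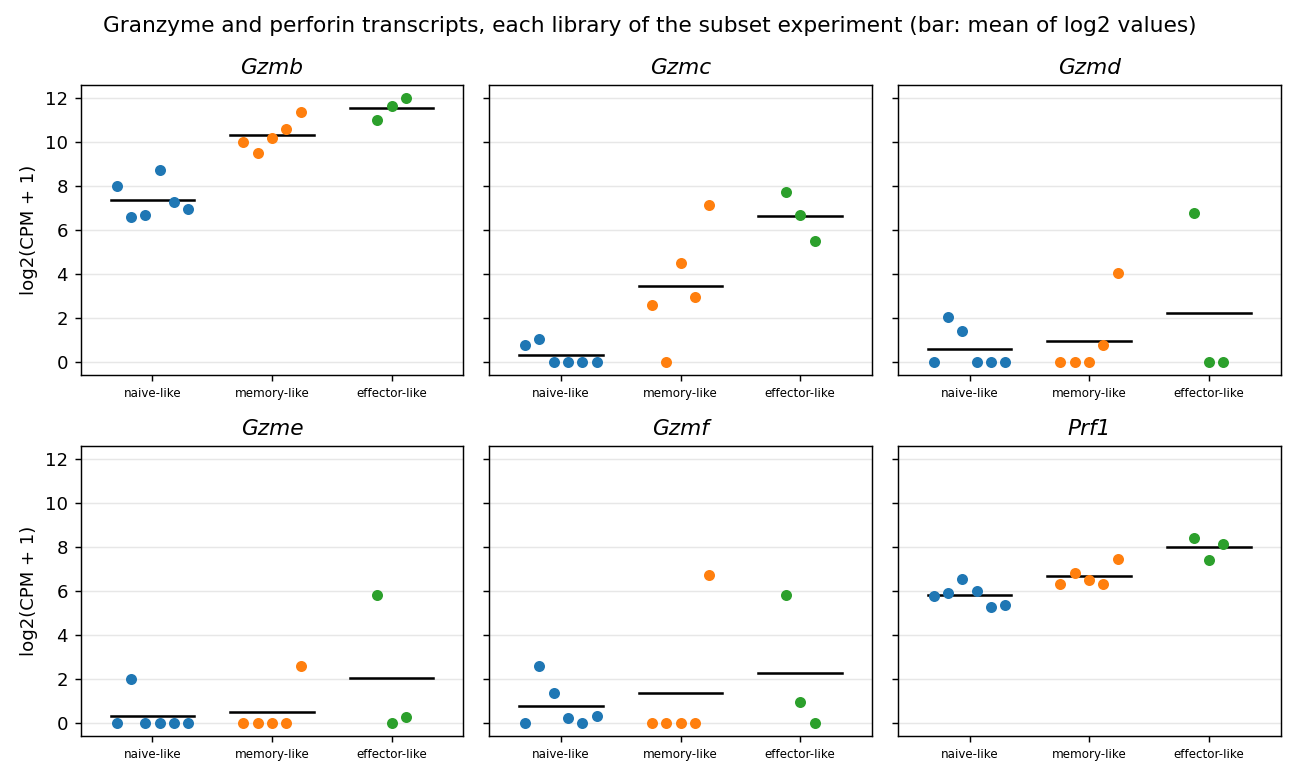
Each point is 1 library of the subset experiment and each bar the mean of its group (naive-like n = 6, memory-like n = 5, effector-like n = 3), on a log2(CPM + 1) axis. Gzmb separates the naive-like libraries, at 96.3 to 425 CPM, from the rest, and 1 effector-like and 1 memory-like library stand above the others of their group for Gzmd, Gzme and Gzmf.

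The other genes of the granule pathway did not all move with the members between DP and DN cells. Among 5 measured granzyme inhibitors, serpins that block granzymes or related proteases, 4 were higher in DP than DN isotype libraries and none lower (median log2 1.57, against 0.00 for all genes tested and 29.9% of all genes called). Serpinb9b, a mouse-specific serpin of the Serpinb9 family, was at 696 ± 331 CPM (n = 3) in DP and 2.45 ± 1.43 in DN isotype libraries (log2 8.17 ± 0.66, edgeR adjusted p = 3.55e-06). Serpinb9, the inhibitor of granzyme B, was at 403 ± 52.4 against 137 ± 14.7 CPM (log2 1.56 ± 0.13, edgeR adjusted p = 4.31e-06), and Serpinb6b and Serpinb6a were the other 2 called. Under blockade 3 of 5 inhibitors were higher (27% of all genes called), again with Serpinb9, Serpinb9b and Serpinb6b.

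Granule contents and granzyme-processing genes were called higher in 5 of 14 and lower in 1 of 14 cases between DP and DN isotype libraries, again beside 29.9% of all genes. Nkg7, a granule membrane protein needed for degranulation, was at 1572 ± 117 against 708 ± 91.3 CPM, and Cst7 (cystatin F) and Ctsc (cathepsin C, which activates granzymes) were higher with log2 1.20 and 0.72. Ctsh, the cathepsin H gene, was lower, at 14 ± 2.52 against 247 ± 42.1 CPM. Of 28 trafficking and exocytosis genes 4 were higher and 2 lower under isotype, where 29.9% of all genes were called. Stx11, a syntaxin of granule release, was at 62.3 ± 11.4 against 16.9 ± 1.22 CPM, and Sytl2 and Vamp8 were also higher, with log2 1.70 and 0.75; Stx7 was lower (log2 -1.29). In blockade libraries 8 of 28 were higher and 1 lower, where 27% of all genes were called.

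Of 30 regulators linked to these genes, 12 were higher and 5 lower in DP than DN isotype libraries, where 29.9% of all genes were called. The 4 with the smallest p were Tcf7 (log2 -4.01 ± 0.23), Id3 (-3.45 ± 0.24) and Klf2 (-3.56 ± 0.28), which were lower, and Rbpj, the Notch signal transducer, which was higher (1.80 ± 0.14), all at edgeR adjusted p of at most 2.89e-06. Of the granzymes outside the 6, Gzmg (20.6 ± 5.37 against 0.448 ± 0.503 CPM) and Gzmk were higher in DP isotype libraries, Gzmm was lower (log2 -2.71 ± 0.38) and Gzma did not pass. Of 9 other genes of the cluster on chromosome 14 in the table, 2 were tested, Gzmg and Mcpt8, the basophil protease gene, and both passed the count filter only through the DP libraries in which they were high, so their direction was fixed by the filter. Mcpt8 had 0 counts in all 6 DN libraries and 12 to 70 in each DP library (1.11 to 5.35 CPM). Mast cell genes of the same cluster, Cma1 and Mcpt4, named after their values were seen, were at 862 and 770.0 counts in DP isotype replicate 3 and at most 4 in any other library of the experiment. That replicate was the lowest of DP isotype for all 6 members.

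Under blockade in DN cells few pathway genes passed, beside 1.12% of all genes. Gzmk was the 1 of 4 other granzymes called (log2 0.77 ± 0.15, edgeR adjusted p = 0.0334), Stx11 the 1 of 28 trafficking genes (0.89 ± 0.15, edgeR adjusted p = 0.0231), and Tbx21, the T-bet gene, and Bhlhe40 were the 2 of 30 regulators, with Tbx21 at 167 ± 26.8 against 83.3 ± 15.6 CPM (edgeR adjusted p = 0.0145). All 4 were higher. None of 14 granule content genes and none of 5 inhibitors passed, and list medians ran from -0.04 to 0.55 log2 against -0.01 for all genes. In DP cells none of the genes of these lists passed.

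In the subsets, all 3 of the other granzymes tested, Gzma, Gzmk and Gzmm, were higher in effector-like than naive-like and in memory-like than naive-like cells, and Gzma alone was higher in effector-like than memory-like cells. The inhibitors Serpinb9 and Serpinb6b were higher in both subsets than in naive-like cells, by log2 2.14 ± 0.27 and 1.21 ± 0.21 in effector-like and 1.20 ± 0.24 and 0.92 ± 0.18 in memory-like cells. Stx11, Sytl2 and Sytl3 were the 3 of 28 trafficking genes higher in each of these comparisons, and none of 28 passed between effector-like and memory-like cells. Of all genes, 6.42% were called between effector-like and naive-like cells, 5.51% between memory-like and naive-like cells and 1.91% between effector-like and memory-like cells.

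The genes whose pattern over the 12 treatment libraries came closest to a member were found by the root-mean-square difference in log2(CPM + 1) after each gene's mean was removed. Serpinb9b was the nearest for Gzmd (0.72), Gzme (0.65) and Gzmf (0.99). Nearest to Gzmb were Entpd1, which encodes CD39 (0.25), Igsf5 (0.27) and Galnt3 (0.28), against its own spread of 1.37. For Prf1 they were Filip1 (0.39), Sv2c (0.40) and Tnfrsf9, the 4-1BB gene (0.42). For Gzmc they were Havcr2 (0.87), Il1r2 (0.94) and Rgs8 (0.96). Slc17a6 and Havcr2 followed for Gzmd (1.03 and 1.06), Slc17a6 and Serpine2 for Gzme (0.87 and 0.91), and Serpine2 and Havcr2 for Gzmf (1.52 and 1.70). Among members the closest pair was Gzmd with Gzme (0.58) and the farthest Gzmb with Gzmf (2.80). These libraries share the DN and DP split, which sets most of each pattern. Over the 14 subset libraries the nearest to Gzmb were Gzmk (0.67), Kcnk5 (0.73) and Tnfrsf9 (0.74), and to Prf1 Il10ra (0.49), Nabp1 (0.50) and Serpinb9 (0.51).

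In single DN cells, Gzmb was found in 19.2% of 2950 isotype cells (95% exact binomial interval 17.7 to 20.6%) and in 64.7% of 2502 blockade cells (62.8 to 66.6%). With 1 library per treatment there is no test, and the intervals cover counting error only. The libraries held a median of 3652 and 3840 unique molecular identifiers (UMIs, each 1 counted transcript molecule) per cell, the smallest cells kept had 1604 and 2578 UMIs, and 7 barcodes occurred in both libraries. Thinned to 2400 UMIs per cell, which left out 506 isotype cells and 0 blockade cells, the shares were 14.7% and 58.4%. In cells with at least 3 myeloid or plasmacytoid dendritic cell markers and no CD3 chain UMI, Gzmb was found in 1 of 17 isotype cells and in 7 of 35 blockade cells, at median depths of 6992 and 6542 UMIs. These shares of 5.88% and 20% lay below those of cells with a CD3 chain UMI and fewer such markers, 19.1% and 65.4%, although the latter were shallower. The isotype interval, 0.149 to 28.7%, includes 19.1%, so the isotype share of Gzmb cannot be told from background by these 17 cells. The blockade interval was 8.44 to 36.9%. By UMIs, the 17 isotype cells held 1 Gzmb UMI in all and the 35 blockade cells 8. Cells with a CD3 chain UMI and fewer such markers held 3277 in 2857 isotype cells and 14765 in 2301 blockade cells. Summed over cells, Gzmb was at 275 CPM (95% Poisson interval 265 to 284) in the isotype and 1348 CPM (1328 to 1369) in the blockade library.

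The blockade library differed both in how many cells had Gzmb and in how much each had. Cells with a Gzmb UMI held a median of 3 UMIs in the isotype and 5 in the blockade library. Cells with 20 to 49 UMIs numbered 23 and 174, and those with 50 or more 6 and 43, or 0.203% and 1.72% of cells. The top 1% of cells, 30 and 25 of them, held 33.1% and 15.9% of all Gzmb UMIs.

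**Figure D5:**
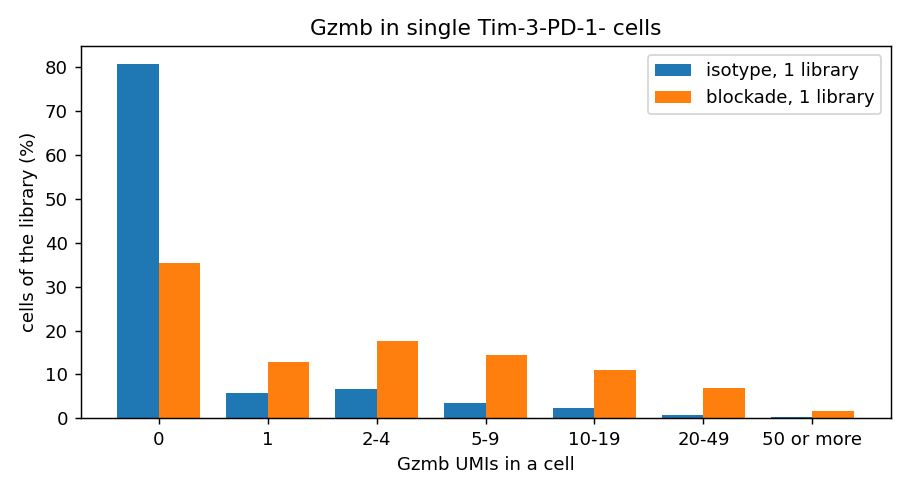
Bars give the share of cells (%) of the isotype and the blockade single-cell library by the number of Gzmb UMIs in a cell. Cells at 0 make up 80.8% of the isotype and 35.3% of the blockade library, and every class from 1 UMI up is larger in the blockade library.

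Prf1 was caught in few single cells, 48 isotype (1.63%, interval 1.20 to 2.15%) and 59 blockade cells (2.36%, 1.80 to 3.03%), with at most 2 UMIs in a cell. Its summed level was 3.95 CPM (2.93 to 5.23) and 5.24 CPM (4.05 to 6.68), and these intervals overlap. The thinned shares were 0.859% and 1.52%. No marker-positive CD3-negative cell had Prf1, but their numbers allow shares of up to 17.6% and 8.57%, so the Prf1 shares cannot be told from background. The ratio of the summed levels, blockade over isotype, was 1.33 for Prf1 (95% exact interval 0.90 to 1.96, counting error only). The bulk DN means of Prf1 stood 2.61-fold apart (log2 1.38 ± 0.23 SE). For Gzmb the single-cell ratio was 4.91 (4.73 to 5.1), and the bulk DN means stood 1.9-fold apart (log2 0.93 ± 0.23 SE). With 1 single-cell library per treatment, whether single cells and bulk differ was not tested.

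Granzyme C to F transcripts sat in a handful of DN cells. Gzmc was found in 19 isotype and 43 blockade cells (0.644% and 1.72%), Gzmf in 3 and 13 (0.102% and 0.520%), and Gzmd and Gzme in 0 isotype cells, which allows up to 0.102%, and 2 blockade cells each (0.0799%). After thinning, the Gzmc shares were 0.409% (0.196 to 0.751%) and 0.799% (0.489 to 1.23%), with overlapping intervals. The summed Gzmc level was 8.07 CPM in the isotype and 11.0 in the blockade library as counted, and 8.18 and 4.33 CPM after thinning. Thinned Gzmf was found in 1 isotype and 11 blockade cells. A single isotype cell held 51 of the 100 Gzmc UMIs, with no Gzmb, and a single blockade cell with 31672 UMIs in all held 51 of the 136. Of the 110 Gzmf UMIs in the blockade library, 3 cells held 35, 27 and 15. The first of these cells had 45244 UMIs and 15 of the myeloid and plasmacytoid markers, and the next 226 Gzmb UMIs, the most of any cell. Of the 14 blockade cells with Gzmd, Gzme or Gzmf, 13 had Gzmb, 7 Gzmc, 5 Havcr2 and 5 Pdcd1, whereas Havcr2 was found in 108 and Pdcd1 in 416 of all 2502 cells. These 14 cells were deep, with a median of 7763 UMIs, and 5 of them had over 10000, as did 56 of all cells in that library. No doublets were removed, and their part in these cells was not tested.

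Most blockade cells with Prf1 or Gzmc also had Gzmb. After thinning, 31 of 38 Prf1 cells had Gzmb there, against 58.0% of the cells without Prf1, and 3 of 21 did in the isotype library, against 14.7%. For Gzmc, 18 of 20 blockade cells and 4 of 10 isotype cells had Gzmb. Cells with Gzma, Gzmk or Klrg1 had Gzmb more often than cells without, at 81.4, 80.1 and 83.5% against 52.2, 50.9 and 57.5% in the blockade library, and at 52.0, 63.9 and 71.0% against 12.7, 11.2 and 14% in the isotype library. Gzmb was also found in cells with the progenitor and naive gene Tcf7, in 108 of 1071 isotype cells (10.1%, against 18.4% without Tcf7) and in 400 of 840 blockade cells (47.6%, against 63.8%). In cells with Ccr7 the shares were 5.62% and 42.7%. These are counts of cells within 1 library each and carry no test.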

How the data were processed

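Bulk libraries were sequenced from adapted SMART-Seq2 libraries of about 2000 sorted cells, and single cells with the 10x Chromium 3' v2 kit, per the labels' protocols. TopHat, RSEM and DESeq (no version), Cell Ranger 1.3 and the builds mm9 and mm10 are named in the submitters' processing notes without a role. The authors deposited expected counts per gene for both bulk experiments, and those expected counts were rounded to whole numbers here. The authors also deposited length-scaled signal values per gene, whose scale is not given in the sources used here. These were used as deposited, to compare levels between genes, and each experiment's table was normalized apart. The single-cell tables hold UMI counts per gene and cell, as deposited by the authors. Total counts are given with the results, and the number of counts sets the precision of each value.

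Counts were tested with edgeR 4.0.16 (quasi-likelihood, TMM, filterByExpr, all groups of an experiment in 1 fit; R 4.3.3), with Benjamini-Hochberg adjustment over all genes tested and a threshold of 0.05. The SE given with a log2 difference is its absolute size divided by the square root of the edgeR F statistic, not a separately fitted error. DESeq2 1.42.0 and limma-voom (limma 3.58.1) were alternatives, beside other scaling, no filter, only the groups compared, replicate blocks and each replicate left out. The 6 members, the pathway and marker lists and the comparisons were chosen with earlier results of these data known. Other genes were named by a rule: up to 4 called genes of each list with the smallest p, and the 3 genes nearest in pattern to each member. Replicate numbers of the titles served as a block over all libraries of an experiment, DP libraries included. Deviations of same-numbered DN isotype and DN blockade libraries from their group means correlated in all 3 pairs (r = 0.15 to 0.46), and no label says why. Between same-numbered DN isotype and DP isotype libraries r was -0.38 to 0.02, so the block also joins libraries that did not vary together. Library names number the DN blockade and DP libraries otherwise. By those numbers r between DN and DP libraries was 0.02 to 0.38 under isotype and 0.055 to 0.16 under blockade. Cells were kept with 500 or more genes and a mitochondrial share of UMIs up to 10%, 2950 of 2963 isotype and 2502 of 2508 blockade cells. Cells were taken to a library by the suffix of their names. Doublets were not removed. Promoter windows came from RefSeq (GRCm38.p6) and transcripts from GENCODE (GRCm38).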

Additional observations from a re-analysis of the deposited data

Results flagged for a closer look

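In 2 libraries granzyme C to F transcripts stood far above the rest of their group, with a gap to the next library that exceeded Dixon's 95% critical value. Memory-like replicate 5 held 142 CPM of Gzmc, 15.6 CPM of Gzmd, 4.96 CPM of Gzme and 106 CPM of Gzmf. Naive-like replicate 2 held 3.02 CPM of Gzme and 5.06 CPM of Gzmf. For Gzme in both groups and Gzmf in memory-like cells all other libraries were at 0, where any count in 1 library exceeds that value. No chance rate is given, because many of these values are 0 and only high libraries were flagged. Groups of 3 libraries, effector-like cells among them, were not checked.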

How the results depend on the processing

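No bulk log2 difference of a member changed sign under any alternative run. In single cells the summed Gzmc level was higher in the blockade library as counted and lower after thinning. Beyond their main intervals moved 4 of the Gzmb and Prf1 shares and 7 other single-cell values. Of the alternatives for single genes tested in bulk, 307 kept direction and side of the threshold, 12 passed it newly and 13 no longer passed. For the untested DP and DN differences 137 moved by less than the spread and 7 by more. Of 6 members, 1 was called between DN blockade and isotype. The count was 4 with no filter on low counts, where 224 of all 20083 genes were called. It was also 4 with DESeq2 (Gzmb, Gzmd, Gzmf and Prf1), where 541 of 12710 genes were called. Of these, Gzmd rests on 4 isotype counts and did not pass the count filter on the DN libraries alone. The count was 0 with only the DN libraries fitted, 2 with the replicate block, and 0 to 2 with a replicate left out. Between effector-like and memory-like cells the count of 1 became 0 with only those groups fitted, with the title-number block and, as a choice made after seeing the data, without the 3 libraries least like their group (the second memory-like, the fourth and sixth naive-like); it was 0 to 1 with a replicate left out. Between memory-like and naive-like cells it was 2 with DESeq2, 0 with a block by library name, and 1 to 2 with a replicate left out. In that name block Gzmb had an edgeR adjusted p = 0.405. Deviations of the 5 same-numbered pairs correlated at r = -0.08 to 0.00, which cannot show whether they share an animal. For the difference between the blockade effects the count of members called was 2 with DESeq2 against 0. The replicate block changed no other member's call. The cause was not tested, except that fits of fewer groups hold fewer samples.

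Counts of all genes called moved by over 1.5 times as follows. DN blockade against isotype gave 142 in the main fit, 224 with no filter, 541 with DESeq2, 2 with only its groups, 59 with the block and 22 to 229 with a replicate left out (82 and 42 without DN blockade 1 and 3; 22, 28 and 229 without DN isotype 1, 2 and 3). DP blockade against isotype gave 8, 17 with no filter, 63 with DESeq2, 16 with only its groups, 4 with the block and 3 to 9 with a replicate left out (5 without DP blockade 1 or 2, 3 and 4 without DP isotype 1 and 3). Effector-like against memory-like gave 237, 494 with DESeq2, 123 with the title block and 105 to 215 with a replicate left out (105 without effector-like 2, 153 without effector-like 1 and 156 without memory-like 3), and memory-like against naive-like 683, 1204 with DESeq2, 0 with the name block and 340 to 815 (340 without memory-like 1, 429 without memory-like 3). Effector-like against naive-like gave 795, 484 to 1068 with a replicate left out (484 and 517 without effector-like 1 and 2), and 1319 without the 3 libraries least like their group. The blockade difference gave 0, 7 with no filter, 113 with DESeq2, 1 with the title block and 1 with the number in the library names as a block. With a replicate left out it gave 0 to 3 (1 and 3 without DN blockade 1 and 3). DP against DN moved less under the block by library name. It gave 3855 genes under isotype and 3417 under blockade, in place of 3794 and 3426. In single cells thinned to equal UMIs, Gzmb was found in 14.7% of isotype and 58.4% of blockade cells, and Prf1 in 0.859% and 1.52%, since fewer UMIs per cell are read. Depth limits Gzmd and Gzme, which rest on 4 and 8 counts in DN isotype libraries.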
